A study of Taxus x media with 6 samples.

Results

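The 100 most abundant genes of Taxus × media twigs were described here across 3 female and 3 male trees. Taxus × media is a hybrid yew whose trees are either female or male, grown as a source of taxoids, the diterpenoids that include the anticancer drug paclitaxel. The members were chosen by their mean TPM over all 6 libraries and are the 100 highest of 43846 assembled genes listed. TPM is a measure of transcript abundance, reads per transcript length scaled to a fixed total in each library. The levels themselves chose the members, so levels and shares of the library are given as description, with no test. The female and male groups were twigs of 3 independent trees each, grown under 1 set of light, temperature and humidity conditions with no treatment, and each library was taken as 1 tree. The labels give no age, clone, parentage or sequencing batch, so a difference between the sexes and a difference in parentage shared within a sex cannot be told apart.

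In any tissue a short list of transcripts takes a large part of the messenger RNA, and the list says what the cells are mostly making. In green plant shoots the most abundant nuclear messengers usually include those for light-harvesting chlorophyll-binding proteins, the small subunit of Rubisco, ribosomal proteins, metallothioneins and translation factors. Capture on oligo(dT) beads, as used here, favours polyadenylated nuclear messengers over ribosomal RNA and most plastid RNA. The identifiers are those of the Trinity assembler, and the files pair none of them with a gene name or sequence. No role is therefore given to any member, and the labelled tissue was not checked against marker genes. Because whole twigs were sequenced, a lower level can mean fewer cells of a type or less RNA per cell, and these cannot be told apart.

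The members held 28.9% ± 2.09 of all TPM in the 3 female trees and 29.0% ± 2.10 in the 3 male trees (SD). The shares of single libraries were 31.0%, 26.8% and 29.1% in female trees 1, 2 and 3, against 31.4%, 27.3% and 28.3% in male trees 1, 2 and 3. The sexes overlapped fully, and trees of 1 sex differed by up to about 4 percentage points. The 2 libraries with the highest shares, male tree 1 and female tree 1, also had the lowest median over all genes, 3.78 TPM in male tree 1 and 3.23 TPM in female tree 1, against 4.20 to 5.25 TPM in the other libraries. They also listed the fewest genes above 0, 39636 in male tree 1 and 38652 in female tree 1, against 40627 to 41505 in the others. The part of these library differences in the share was not tested. In female tree 2, 1215 genes were listed that stood at 0 in the other 5 libraries, with 2.44% of its TPM. With these genes its share of 26.8% was the lowest of all libraries. Without them its members held 27.5%, the second lowest share.

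The means of the sexes differed in how the share was spread over the ranks. The first 10 members held a share of 11.0% ± 1.28 in female trees and 9.66% ± 0.658 in male trees, whereas ranks 11 to 50 held 11.6% ± 0.737 in female trees and 12.8% ± 1.01 in male trees (n = 3 each, SD). Ranks 51 to 100 held 6.36% ± 0.453 in female trees and 6.55% ± 0.446 in male trees. In each of these bands the lowest library of the higher sex lay below the highest library of the other sex. Rank 1 alone held 3.19% ± 0.117 in female trees and 3.02% ± 0.167 in male trees.

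**Figure D1:**
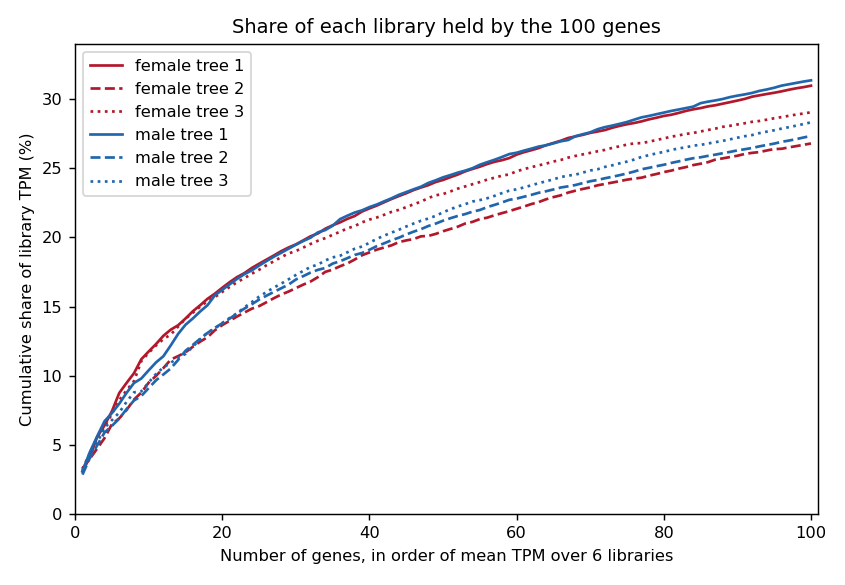
Cumulative share of library TPM (y axis, percent) against the number of genes taken in order of mean TPM (x axis), with 1 line per library, female trees red and male trees blue. All 6 lines start near 3% and end between 26.8% (female tree 2) and 31.4% (male tree 1), with lines of both sexes mixed.

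Levels differed widely along the list. Mean levels ranged from 31004 TPM at rank 1 to 982 TPM at rank 100, and the first gene left out averaged 975 TPM. TRINITY_DN22771_c0_g1, at rank 100, stood at 1023, 921 and 849 TPM in female trees and at 855, 1078 and 1168 TPM in male trees. TRINITY_DN30206_c1_g2, the first gene left out, stood at 932, 952 and 1056 TPM in female trees and at 1074, 947 and 891 TPM in male trees. The ranges of these genes overlap, so the lower end of the list is set by small differences. Of the members, 3 averaged over 10000 TPM, 11 over 5000 TPM and 44 over 2000 TPM, with a median of 1855 TPM. Every member had at least 177 TPM in every library, so all 100 passed the filter on low values and entered the test between the sexes.

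TRINITY_DN20963_c0_g1 was the most abundant gene of every library by a wide margin. It stood at 30520.3, 32578 and 32470.1 TPM in female trees and at 30816 TPM, 28252 TPM and 31386 TPM in male trees 1, 2 and 3. Its mean was 2.85 times that of rank 2 and 31.6 times that of rank 100. The highest of its 6 values was 1.15 times the lowest, and the sexes overlapped.

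The sexes were compared gene by gene in limma, a linear model on log2(TPM + 1). It draws the SD of each gene towards a trend of SD fitted against mean level. A gene is called where its p, adjusted over all 41430 tested genes, is under 0.05, and a log2 difference is the female mean of log2(TPM + 1) less the male mean. The p-values rest on the spread between these trees after it is drawn towards the trend, not on each gene's own spread alone.

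The genes at ranks 2 to 4 changed places between the sexes without passing the test. TRINITY_DN26394_c0_g1 was at place 5 in the female order and place 2 in the male order, with 9638 ± 2163 TPM in female trees and 12093 ± 1539 TPM in male trees (n = 3 each, SD). TRINITY_DN26819_c0_g1 was at place 2 in the female order and place 4 in the male order, with 11105 ± 3519 TPM in female trees and 9987 ± 1257 TPM in male trees. TRINITY_DN30814_c0_g2 was at place 7 in the female order and place 3 in the male order, with 7881 ± 411 TPM in female trees and 10309.8 ± 895 TPM in male trees. Of these 3 genes only the last had female and male trees that did not overlap, at 7566 to 8346 TPM in female trees and 9282 to 10911 TPM in male trees (limma adjusted p = 0.566).

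TRINITY_DN31288_c2_g1, at rank 5, was higher in each female tree than in any male tree. It stood at 10189, 10090.3 and 9134 TPM in female trees and at 5838, 4772 and 5460 TPM in male trees. The log2 difference of 0.88 ± 0.310 (SE) did not pass (limma adjusted p = 0.140). The gene's own SD within a sex was 0.122 log2 units, whereas limma's moderated SD was 0.380. Of the 16 alternative fits on single genes, 3 called it. Without the intensity trend it passed at an adjusted p of 0.0227, without the filter on low values at 0.0219, and with a filter of 5 TPM at 0.0407. In the other fits it did not pass, with a limma adjusted p of up to 0.379 (without male tree 2).

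At the median, limma's moderated SD was also above the own SD at the top of the list. The median own SD of ranks 1 to 50 was 0.217 log2 units and the median moderated SD 0.312, against 0.189 and 0.203 for ranks 51 to 100. At rank 1 the own SD was 0.0685 and the moderated SD 0.973. A small difference between the sexes was therefore harder to call at the highest levels.

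TRINITY_DN26232_c0_g1, at rank 9, showed the largest difference in level between the sexes of any member. It stood at 10124, 5107 and 14511 TPM in female trees, against 3257, 3251 and 678 TPM in male trees. It was at place 3 by female mean and place 38 by male mean, and its place was 6, 11 and 2 in female libraries against 26, 25 and 138 in male libraries. Female trees averaged 9914 ± 4706 TPM and male trees 2395 ± 1488 TPM (n = 3 each, SD). The sexes did not overlap, but the spread within each was wide, and the log2 difference of 2.24 ± 0.723 (SE) did not pass (limma adjusted p = 0.112). The adjusted p lay between 0.0787 and 0.254 over the 16 other fits on single genes, so no fit called it. Without male tree 3 the log2 difference was 1.48.

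The other genes of the first 10 differed less. TRINITY_DN26819_c0_g2 at rank 6 stood at 13203, 4149 and 10012 TPM in female trees and at 6787, 5263 and 5545 TPM in male trees, so female tree 2 lay below every male tree. TRINITY_DN29601_c0_g3, TRINITY_DN27035_c1_g2 and TRINITY_DN20897_c0_g1, at ranks 7, 8 and 10, had a highest value 1.29, 1.21 and 1.27 times their lowest over the 6 libraries.

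**Figure D2:**
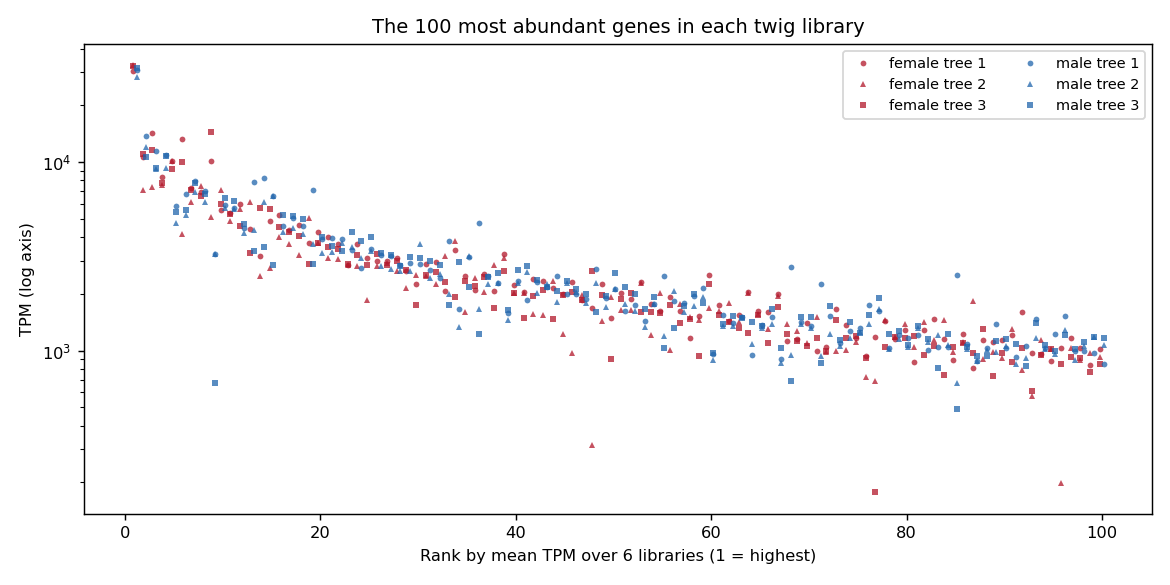
TPM of each of the 100 genes (y axis, log scale) by rank of the mean over 6 libraries (x axis), with 1 point per library, female trees red and male trees blue. Most genes have their 6 points close together, while male tree 3 drops to 678 TPM at rank 9, and female trees 2 and 3 reach the lowest values of the plot at ranks 48, 77 and 96.

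The female and male orders of the members were compared over the whole list and in bands of rank. Over the 100 members, the Spearman correlation of female and male means was 0.864, across genes that are not independent replicates. It was 0.830 over ranks 1 to 50 and 0.285 over ranks 51 to 100, where levels lie close together. Of the first 10 members, 8 were among the 10 highest of both sexes, and of the members at ranks 1 to 20, 16 differed by at most 5 places between the female and the male order. Over all members the median difference in place was 7, and 62 members differed by at most 10 places.

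Between single libraries the order was on average most alike within a sex. The Spearman correlation over the members averaged 0.883 over the 3 pairs of female trees (0.837 to 0.938), 0.871 over the 3 pairs of male trees (0.798 to 0.921) and 0.795 over the 9 pairs that join the sexes (0.741 to 0.855). The ranges overlap. Over the 900 genes that follow the members in mean level the same averages were 0.805, 0.934 and 0.684. These pairs share libraries, and the values are a description.

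Membership was compared with each library's own list of 100, an overlap partly built in because these libraries chose the members. Of the members, 73 were among the 100 most abundant genes of all 6 libraries. Each female library had 89 to 91 members in its own first 100 and each male library 94 or 95. The 6 lists of 100 held in all 126 genes, 26 of them not members. The lists of the 100 highest female means and the 100 highest male means shared 89 genes, of which 88 were members.

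The 11 genes in the female list alone included 4 members and 7 other genes. In the male order, 4 of the 11 lay beyond rank 200 and 2 beyond rank 1000. The gene farthest down was at rank 92 by female mean and rank 33875 by male mean. It stood at 1033, 1294 and 782 TPM in female trees, against 0, 4.26 and 2.13 TPM in male trees. Its mean over both sexes put it at rank 185, so a mean over 6 libraries keeps a gene of this kind out of the list. Of the 11 genes in the male list alone, 8 were members and none lay beyond rank 153 in the female order.

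Of the 100 members, 5 passed the limma test for sex at an adjusted p under 0.05, whereas 11.6% of all 41430 tested genes were called. Of these, 3 were higher in female trees, against 4.71% of all tested genes, and 2 were higher in male trees, against 6.94%. At an unadjusted p under 0.05 there were 14 members, against 25.0% of tested genes. Among the next 900 genes by mean level, 16.9% were called, 10.7% towards female and 6.22% towards male trees, and 35.0% had an unadjusted p under 0.05. All 5 called members lay between ranks 39 and 93. The count was 2 without each of male trees 1, 2 and 3 in turn (2 higher in female trees and 0 in male, 1 and 1, 2 and 0), where 8.51%, 6.74% and 6.31% of all genes were called. At an unadjusted p under 0.05, 5 members were higher in male trees without male tree 1 and 3 without male tree 3. After TMM-type scaling, which aligns libraries on a trimmed mean of log ratios, 3 members were called higher in female trees and 0 in male trees. Of all tested genes, 11.1% were called after that scaling. At an unadjusted p under 0.05 that fit had 5 and 3.

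The called member with the largest log2 difference towards female trees was TRINITY_DN21953_c0_g3 at rank 60. It stood at 2520.1, 1684 and 2251 TPM in female trees, against 954, 890 and 966 TPM in male trees. Every female tree was above every male tree, and the log2 difference was 1.18 ± 0.183 (SE; limma adjusted p = 0.0104). It was at place 39 by female mean and just outside the first 100 by male mean. Without male tree 2 the adjusted p was 0.0528, and in the 15 other alternative fits it was below 0.05.

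TRINITY_DN29521_c0_g2 at rank 67 followed. It stood at 1995, 1955 and 1699 TPM in female trees, against 907, 863 and 1037 TPM in male trees. The log2 difference was 1.01 ± 0.143 (SE; limma adjusted p = 0.00747), and the adjusted p was below 0.05 in all 16 alternative fits. The remaining gene called higher in female trees, at rank 39, stood at 3238, 3090.2 and 2653 TPM in female trees and at 1584, 1447 and 1639 TPM in male trees (log2 difference 0.94 ± 0.168, SE; limma adjusted p = 0.0164). The call at rank 39 was lost without male trees 1, 2 and 3, at adjusted p of 0.0569, 0.0867 and 0.0625.

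Both members called higher in male trees lay in the lower part of the list. TRINITY_DN27459_c0_g3 at rank 76 stood at 933, 729 and 913 TPM in female trees, against 1746, 1384 and 1542 TPM in male trees. The log2 difference was -0.86 ± 0.160 (SE; limma adjusted p = 0.0189). The adjusted p was 0.108 after TMM-type scaling, 0.0610 without male tree 1 and 0.0726 without male tree 3. TRINITY_DN31338_c0_g2 at rank 93 stood at 975, 577 and 608 TPM in female trees, against 1476, 1161 and 1406 TPM in male trees. Its log2 difference of -0.94 ± 0.230 (SE) passed only narrowly (limma adjusted p = 0.0495) and passed in 4 of the 16 alternative fits. Leaving out female trees 2 and 3 in turn gave an adjusted p of 0.113 and 0.140. Leaving out male trees 1, 2 and 3 gave 0.135, 0.0944 and 0.155.

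**Figure D3:**
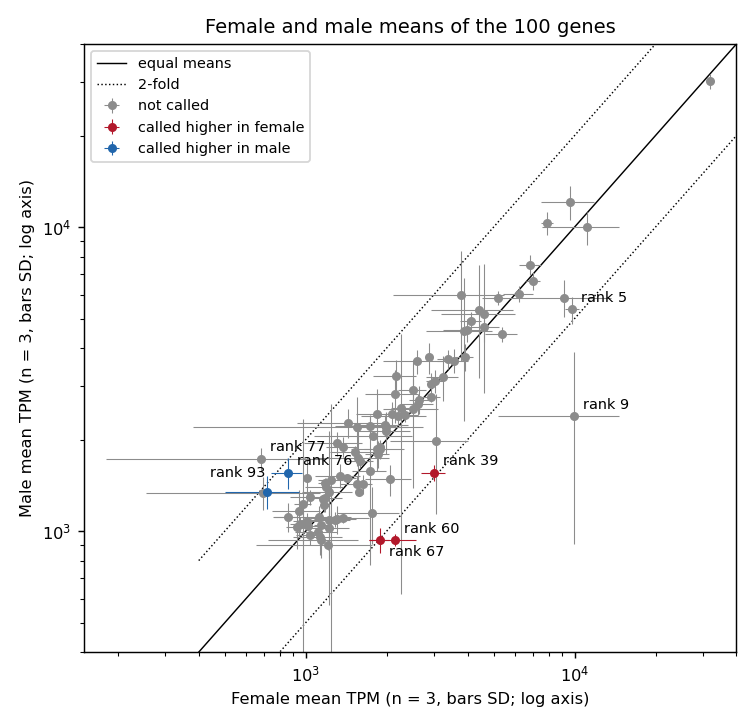
Mean TPM in female trees (x axis, log scale) against mean TPM in male trees (y axis, log scale) for each of the 100 genes, with bars of 1 SD (n = 3 trees per sex). Solid and dotted lines mark equal means and 2-fold differences, and the 5 called genes are coloured by the sex with the higher level. The gene at rank 9 lies farthest from the diagonal and was not called.

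Without regard to the test, 27 members had female and male trees that did not overlap. In 7 all female trees lay above all male trees, against 12.6% of all tested genes and 27.6% of the next 900 genes, and in 20 all lay below, against 18.4% and 14.1%. Their log2 differences were as small as 0.12 in size. These counts depended on the scaling. TMM-type scaling gave 9 above and 5 below, against 14.9% above and 14.9% below of all tested genes. Quantile normalization gave 11 and 11, against 13.8% and 15.4%. Leaving out a library removes a condition, so the counts could only rise. Those above numbered 17 without female tree 3, 15 when male tree 1 was left out, 13 when female tree 2 or male tree 3 was, 9 when female tree 1 was and 8 when male tree 2 was, against 15.0% to 17.5% of all tested genes. Those below numbered 21 to 29, the most without female tree 1, against 21.4% to 28.4% of all tested genes.

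The median log2 difference over the members was -0.05, beside -0.11 over all tested genes. Of the members, 38 were on the female side of 0, against 41.2% of all tested genes. The next 900 genes by mean level lay the other way, with a median of 0.09 and 556 genes on the female side. TMM-type scaling moved the difference of each member by about the same amount towards female trees, and 59 members were then on the female side, against 49.5%. With quantile normalization there were 46, against 48.5%. With these scalings the median over all tested genes was -0.01 and -0.02. In absolute amount, members higher in female trees had 28514 TPM more there in sum, and members lower in female trees differed by -29111 TPM. Ranks 9 and 5 made up 42.0% of the first sum, with 7518 and 4448 TPM. The largest amounts towards male trees were -2455 TPM at rank 2 and -2429 TPM at rank 4. The 5 called members held 8.55% of all such differences taken without sign. Spread between trees enters these sums, and the called members lay between ranks 39 and 93, where levels are lower. The percentage is therefore not a measure of how much abundance depends on sex.

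Trees of 1 sex also differed from each other. The median member had an SD within a sex of 0.193 log2 units, against 0.153 for the next 900 genes and 0.398 for all tested genes. The median ratio of the highest to the lowest tree was 1.31 among female and 1.19 among male trees, against 1.61 and 1.51 for all tested genes. In 11 members this ratio reached 2 among female trees and in 12 among male trees, against 34.7% and 29.9% of all tested genes and 9.78% and 3.22% of the next 900. Over all 6 libraries 46 members stayed within 1.5-fold, against 20.0% of all tested genes and 53.3% of the next 900 genes. Depth is unknown here, and low genes carry more counting noise, so genes of all levels are not a like comparison.

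The steadiest members were TRINITY_DN25003_c0_g2 at rank 79 and TRINITY_DN19630_c0_g1 at rank 47. Rank 79 stood at 1159, 1179 and 1185 TPM in female trees and at 1214, 1159 and 1278 TPM in male trees. Rank 47 stood at 1848, 1963 and 1865 TPM in female trees and at 1884, 1793 and 2005 TPM in male trees. Their highest values were 1.10 and 1.12 times their lowest.

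The members with the 3 largest ratios of the highest to the lowest tree of a sex had them among female trees. Among male trees the ratio reached 5.08 at rank 85 and 4.80 at rank 9. TRINITY_DN22491_c0_g1 at rank 48 stood at 1694, 317 and 2654 TPM in female trees and at 2710, 2291 and 1603 TPM in male trees. Its low value was in female tree 2, where it was the 324th gene, and the female trees ran 8.35-fold apart. TRINITY_DN28104_c0_g2 at rank 77 stood at 1179, 689 and 177 TPM in female trees and at 1632, 1656 and 1906 TPM in male trees. Every male tree was above every female tree, and the female trees ran 6.62-fold apart. The log2 difference of -1.72 ± 0.651 (SE) did not pass (limma adjusted p = 0.164). Without female tree 3 it was -0.94 (limma adjusted p = 0.106). In female tree 3 this was the 706th gene, the lowest place of any member in any library. TRINITY_DN30443_c0_g2 at rank 96 stood at 1029, 199 and 846 TPM in female trees and at 1521, 1292 and 1206 TPM in male trees, with its low value in female tree 2 and a ratio of 5.14 among female trees (limma adjusted p = 0.264).

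A member was taken as set apart in a tree where (TPM + 1) of that tree was at least 1.5-fold above or below both other trees of its sex, a rule chosen after the data were seen. This held for 28 members, against 56.1% of all tested genes and 17.1% of the next 900 genes. At 2-fold it held for 12 members, against 32.5% of all tested genes and 6.33% of the next 900. Female tree 2 was low for 10 members, against 7.36% of all tested genes and 6.78% of the next 900 genes. Female tree 3 was low for 6 members, against 5.05% of all tested genes and 2.67% of the next 900. Male tree 1 was high for 8 members, against 3.39% of all tested genes and 1.11% of the next 900 genes. With TMM-type scaling 9 members were high in male tree 1, against 4.75% of all tested genes, and with quantile normalization 8, against 7.24%. All of the first 8 were among them both times. Female tree 2 was low for 13 members with TMM-type scaling, against 8.80% of all tested genes, and for 7 with quantile normalization, against 13.5%, so its share of members lay above that of all genes in the first and below it in the second.

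The 8 members high in male tree 1, at ranks 13, 19, 33, 36, 55, 68, 71 and 85, are described over the other trees too. Their summed shares of TPM were 1.70%, 2.27% and 1.57% in female trees 1, 2 and 3, against 3.36%, 1.55% and 1.23% in male trees 1, 2 and 3. Male tree 1 was 1.79 to 3.73 times male tree 2 and 2.19 to 5.09 times male tree 3. The rule that chose these genes sets both ratios to at least about 1.5. Male tree 3 was the lowest male tree for all 8, and female tree 2 the highest female tree for 7. No share over all tested genes is given beside these counts, and genes of the same libraries are not independent. The sexes overlapped in each of the 8, and the log2 differences lay between -0.17 and 0.24.

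Some of these 8 kept a nearly fixed ratio to each other while their levels moved. TRINITY_DN25413_c0_g1 at rank 13 stood at 4414, 6116 and 3301 TPM in female trees and at 7837, 4369 and 3370.2 TPM in male trees. TRINITY_DN22967_c0_g1 at rank 19 stood at 3708, 5021 and 2880.3 TPM in female trees and at 7131, 3663 and 2895 TPM in male trees. The ratio of rank 13 to rank 19 stayed between 1.10 and 1.22 in the 6 libraries. TRINITY_DN31090_c0_g1 at rank 36 stood at 2101, 2441 and 2212 TPM in female trees and at 4744, 1665 and 1219 TPM in male trees. TRINITY_DN27958_c2_g4 at rank 68 stood at 1123, 1384 and 1223 TPM in female trees and at 2786, 954 and 691 TPM in male trees. The ratio of rank 36 to rank 68 stayed between 1.70 and 1.87. These 4 genes were named after their values were seen, and each pair is in separate assembly components. Such ratios were not particular to the 8. That of rank 39 to rank 67 stayed between 1.56 and 1.75, and that of rank 5 to rank 39 between 3.15 and 3.69.

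**Figure D4:**
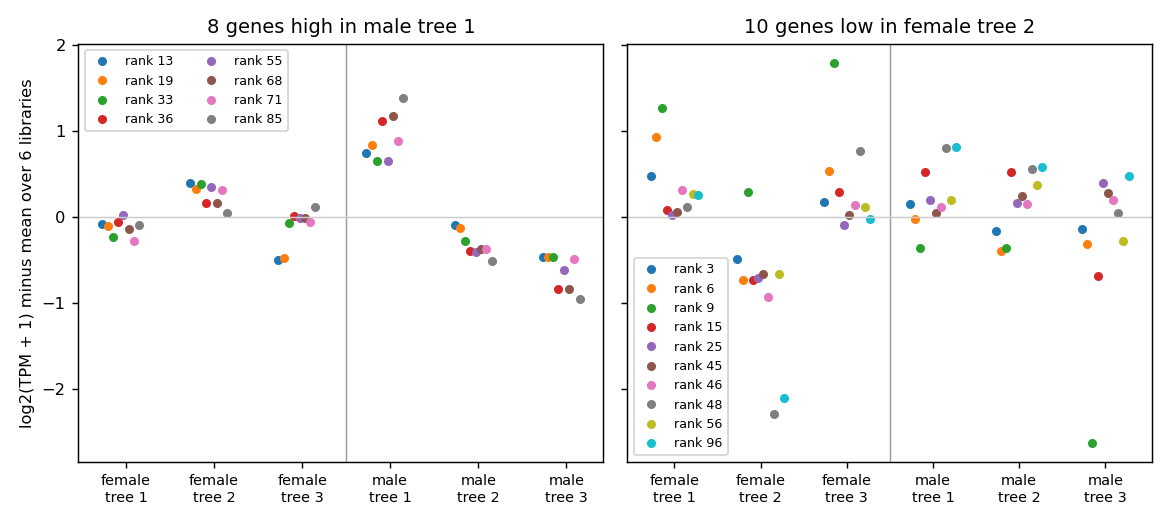
log2(TPM + 1) of each gene minus its mean over 6 libraries (y axis) in female trees and then male trees (x axis), with 1 colour per gene. The left panel shows the 8 genes high in male tree 1, and the right panel the 10 genes low in female tree 2, where ranks 48 and 96 are lowest in that tree and rank 9 is lower still in male tree 3. The trees of a sex have no order.

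The 10 members low in female tree 2 were at ranks 3, 6, 9, 15, 25, 45, 46, 48, 56 and 96. Ranks 9 and 15 were also low in male tree 3, as was rank 14. Ranks 48 and 96 stood at 317 and 199 TPM in female tree 2, against at least 1603 and 1206 TPM in every male tree.

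**Figure D5:**
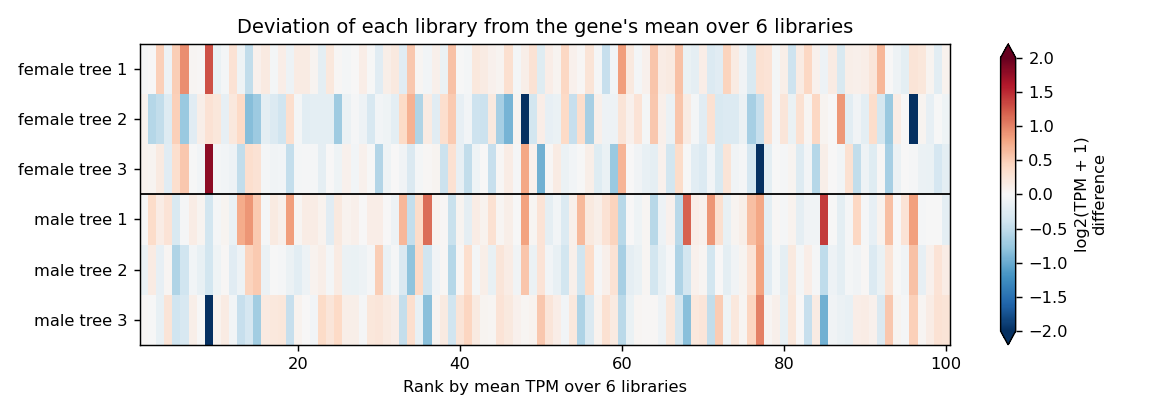
Difference of each library from the mean over 6 libraries, in log2(TPM + 1), for the 100 genes in rank order (x axis), with female trees above the line and male trees below it. Red is above and blue below the gene's mean, and colours end at differences of 2. The deepest blues are female tree 2 at ranks 48 and 96, female tree 3 at rank 77 and male tree 3 at rank 9.

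Trinity groups assembled genes into components, within which copies, alleles or pieces of a gene can share reads. The members came from 95 components. Of the members, 26 were alone in their component, beside 34.9% of all tested genes. Among the 74 with another listed gene, 56 held at least 90% of their component's TPM and 6 held under 50%. The other genes of these components were mostly weak, with a median of 5.24 TPM. Of 165 such genes that were tested and were not members, 19 were called in limma (11.5%), 9 of them higher in female trees and 10 of them in male trees.

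In 4 components more than 1 gene was a member. Those at ranks 3 and 6 shared a component and summed to 20230 ± 8111 TPM in female trees and 15853 ± 2064 TPM in male trees (n = 3 each, SD). Rank 3 held 52.0%, 63.9% and 53.7% of that component in female trees and 62.8%, 63.6% and 62.7% in male trees. Those at ranks 4, 87 and 95 shared another, in which rank 87 held 17.7% in female tree 2 and 6.75% to 9.97% in the other libraries. Ranks 24 and 74 held between 67.9% and 73.2% and between 26.4% and 31.4% of theirs in every library.

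The genes at ranks 11 and 67 differed in how they divided their component. Rank 67, called higher in female trees above, held 27.1%, 28.6% and 24.2% of the component in female trees, against 13.7%, 13.3% and 14.3% in male trees. Rank 11 stood at 5366, 4890 and 5315 TPM in female trees and at 5699, 5618 and 6194 TPM in male trees, with female trees below male trees throughout (limma adjusted p = 0.741). The sum of the component was 7073 ± 263 TPM in female trees and 6773 ± 402 TPM in male trees (n = 3 each, SD), a log2 difference of 0.06 ± 0.185 (SE; limma adjusted p = 0.870 over components). The difference at rank 67 passed the test, and that of the component's sum did not.

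The member at rank 72 lay in a component with 3 listed genes. It stood at 1042, 989 and 990.1 TPM in female trees and at 1522, 1222 and 1731 TPM in male trees, with a log2 difference of -0.55 ± 0.162 (SE; limma adjusted p = 0.0843). Another gene of its component, at overall rank 138, averaged 918 ± 65.1 TPM in female trees and 418 ± 83.9 TPM in male trees (n = 3 each, SD; log2 difference 1.15, limma adjusted p = 0.00838). The remaining one, at overall rank 367, averaged 12.1 ± 3.82 TPM in female trees and 562 ± 97.4 TPM in male trees (log2 difference -5.46, limma adjusted p = 0.000586). The component as a whole summed to 1937 ± 94.4 TPM in female trees and 2472 ± 435 TPM in male trees (limma adjusted p = 0.278 over components).

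The member called higher in male trees at rank 76 held 47.5% of its component. The 2 next genes of that component averaged 766 ± 57.5 TPM in female trees and 884 ± 54.4 TPM in male trees and 456 ± 44.0 TPM in female trees and 499 ± 48.0 TPM in male trees (n = 3 each, SD), and neither passed (limma adjusted p = 0.326 and 0.562). The sum of the component did not pass either (log2 difference -0.50 ± 0.143, SE; limma adjusted p = 0.0866 over components).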

How the data were processed

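RNA from twigs of 3 female and 3 male trees was sequenced on an Illumina HiSeq after poly(A) capture, per the labels' protocols. The authors deposited 1 table per library with 1 value per gene. The deposited values were taken as TPM, since they are not whole, low values share no step, and library totals lie between 997065 and 998035. No gene is listed whose highest library is under 2.01. Trimming, assembly and quantifier are not stated in the labels or headers, and TPM keeps no depth, so the depth per library and counting errors are unknown.

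The tables were joined by gene, and the 100 genes with the highest mean were taken (Python 3.11.15, pandas 2.3.3). The members and lists were chosen with earlier results of these data known. Genes reaching 1 TPM in at least 3 libraries, 41430 in all, were tested for sex as log2(TPM + 1) in limma 3.58.1 under R 4.3.3. The model held sex alone and an intensity trend, tests were two-sided, and p-values were adjusted by Benjamini-Hochberg across the whole table, with a threshold of 0.05. Differences are female minus male and understate low genes. The fit was tested on simulated data. Genes were named by rule: the 10 highest, the 2 called members with the largest difference in each direction, the 3 with the largest ratio of highest to lowest tree within a sex, the 2 with the smallest over 6 trees, and the genes at and just past rank 100. The labels number the trees 1 to 3 in each sex and state no pairing, so no block was used. Alternatives were TMM-type (30% of ratios and 5% of levels trimmed) and quantile scaling, rescaling to the genes that are not members, no filter or 5 TPM, pseudocounts of 0.1 and 0.01, no trend, array weights, a replicate block, component sums, other choices of members, and each library left out.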

Additional observations from a re-analysis of the deposited data

How the results depend on the processing

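Leaving out each library gave 2 to 5 called members, 1 to 3 higher in female and 0 to 2 higher in male trees. Between 6.31% and 9.81% of all tested genes were called in these fits. The members' share, female minus male, lay between -1.08 and 1.11 percentage points, against -0.07 with all trees. The genes shared by the sexes' lists of 100 ranged from 88 to 90, the rank correlation from 0.841 to 0.861 and the median SD within a sex from 0.148 to 0.220 log2 units. Chosen over 5 libraries, 97 to 100 of the members were chosen again.

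TMM-type scaling gave 3 called members (3 and 0) and component sums 3 among the 100 highest components (3 and 0), with 3 and 11 units higher in male trees at an unadjusted p under 0.05. Beside these, 11.1% of all tested genes were called after TMM-type scaling and 10.3% of all tested components. The 50 highest genes held 1 call (1 and 0, with 2 towards male trees at an unadjusted p under 0.05) and the 200 highest held 22 (15 and 7). These are 2.00% and 11.0% of their lists, against 11.6% of all tested genes. A model with a replicate block for the tree number gave 3 calls among the members, against 8.92% of all tested genes. Of the 3, 2 were higher in female and 1 in male trees, with a limma adjusted p of 0.0734 at rank 39 and 0.0513 at rank 93. For trees that share a number, the deviations from the sex mean had correlations of 0.175 (number 1), 0.0711 (number 2) and -0.0424 (number 3). For a female and a male tree of unlike number they lay between -0.149 and 0.105. These pairs share trees, so the values cannot decide whether the numbers are pairs. The main model had no block because the labels state no pairing. Calls higher in male trees were 1 after rescaling to the genes that are not members, without a filter, with pseudocounts of 0.1 and 0.01 and without the trend. In those fits 8.51% to 11.5% of all tested genes were called in either direction. For all of these the cause was not tested. The rank correlation was 0.795 as a mean over pairs of libraries, and the median SD within a sex 0.249 after TMM-type scaling. No called member changed sign. Differences near 0 did: rank 10 (TRINITY_DN20897_c0_g1) was at -0.0093 with quantile normalization, and ranks 79 (TRINITY_DN25003_c0_g2) and 47 (TRINITY_DN19630_c0_g1) at 0.074 and 0.12 with TMM-type scaling. Leaving out each library gave -0.10 (without female tree 1) to 0.38 for rank 3 (TRINITY_DN26819_c0_g1), -0.059 (without female tree 2) to 0.12 for rank 10, and -0.039 to 0.042 (without male tree 3) for rank 47. Of the members, 98 were chosen again by median and 99 by mean log2 level. With the 2-fold rule, 12 members were set apart in a tree.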
